A study of Mus musculus with 4 samples.

Results

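The epithelial-mesenchymal transition factors Zeb1, Zeb2, Snai1, Snai2, Snai3, Twist1 and Twist2, and the opposing epithelial factors Ovol1, Ovol2 and Grhl2, were followed in a gene table of H3K27me3 from mouse alveolar macrophages. These 10 genes were taken by symbol from 27095 genes, and all 10 were found through their Entrez identifiers. The family was chosen by the fold change of Zeb1 between genotypes in these same libraries, which was already known, and the other genes joined it by function. The genotype differences at the 10 genes are therefore a description: no p-values are given for them, and the count of members past the threshold, given once beside the share of all genes, supports nothing.

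Alveolar macrophages were sorted from the lungs of bone marrow chimeras, and H3K27me3 was mapped by Cut&Tag, in which an antibody brings a transposase to the marked chromatin. There were 2 libraries from Suz12 cKO chimeras and 2 from wild-type chimeras, and the labels call the libraries of each genotype biological replicates. All hosts were C57BL/6-Ly5.1 mice that had been lethally irradiated and had received 90% Ly5.2 marrow, either Suz12 cKO or wild type, mixed with 10% wild-type Ly5.1 marrow. All mice were on the C57BL/6 background, and 100000 sorted cells and 0.5 µg of antibody went into each library. The Cre line behind the conditional knockout, the age of the mice, any pooling of animals and whether the sort removed Ly5.1 or host cells were not given. With 2 libraries per genotype, p-values rest on the spread between these libraries pooled over many genes, not on the spread at each gene alone.

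Counts per library came to 3331138 and 3567282 for cKO and to 2592297 and 2142175 for wild type. Counts are given below as deposited, while CPM and fold changes allow for the greater depth of the cKO libraries. The part of this difference in depth in the results was not tested. The Suz12 window held 11 and 10 counts in cKO and 8 and 10 in wild type. The counting ratio, here and below, is cKO over wild type after the summed counts are divided by library totals alone. It was 0.801 at Suz12 (0.406 to 1.59, the exact binomial 95% interval, which covers counting error only, as elsewhere in the text). Histone mark over the whole Suz12 window does not check the deletion. The labelled cell type was checked at genes that alveolar macrophages use, since active genes carry little H3K27me3. The median over 14 alveolar macrophage genes was 0.142 CPM per kb in cKO and 0.128 in wild type. CPM are counts scaled to the size of each library, and CPM per kb are CPM divided by the length of the gene window. Both are relative to each library, so a change of H3K27me3 common to all genes would not show in them or in fold changes. The medians were 2.29 and 2.02 for 8 lung epithelial genes, 2.40 and 2.32 for 8 fibroblast and endothelial genes, and 1.22 and 1.16 for 8 T and B cell genes. Plet1 among the macrophage genes and Ms4a1 among the T and B cell genes stood at 0 counts in every library, but other windows overlap 95.1% and 100% of theirs, so nothing is read from these values. The summed CPM of the lung epithelial genes was 512 to 513 in cKO and 451 to 529 in wild type, and Hopx was the 1 called among them (log2 fold change 0.54, adjusted p = 0.00493, though 0.236 without cKO library 1 and 0.114 with DESeq2). A gene is called gained or lost in cKO where its edgeR p, Benjamini-Hochberg adjusted over all genes tested, is below 0.05. The part of other cells in the results was not tested. In bulk chromatin, fewer cells carrying the mark and less mark in each cell cannot be told apart.

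H3K27me3 is laid down by Polycomb repressive complex 2, which needs Suz12, and it marks silent developmental genes. Zeb, Snail and Twist factors bind E-box motifs and repress adhesion genes such as Cdh1, which lets epithelial cells detach and move. Ovol1, Ovol2 and Grhl2 hold the epithelial state, in part by keeping Zeb1 off. Macrophages are not epithelial, but in mice Zeb2 is active in resident macrophages and helps to keep their tissue identity.

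Sequences are shown for promoters of 4 members that lie at different H3K27me3 levels, because the CG dinucleotide content of a promoter is a known feature of Polycomb target genes. Per kb of gene window, Twist1 was the most marked member, Snai1 stood near the median of all genes, and Zeb2 was among the least marked. Ovol2 was higher in cKO. Each run covers 250 bases before to 50 bases after a RefSeq gene start in GRCm38.p6, written 5′ to 3′, and capitals mark each CG.
Twist1 (chr12:33957421-33957720, plus strand): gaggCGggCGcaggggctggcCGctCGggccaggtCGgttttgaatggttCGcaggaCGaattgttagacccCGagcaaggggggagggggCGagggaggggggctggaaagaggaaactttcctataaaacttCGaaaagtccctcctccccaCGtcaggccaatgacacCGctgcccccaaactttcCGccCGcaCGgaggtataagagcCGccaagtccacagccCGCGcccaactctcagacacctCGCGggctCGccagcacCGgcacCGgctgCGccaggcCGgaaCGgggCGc
Snai1 (chr2:167537945-167538244, plus strand): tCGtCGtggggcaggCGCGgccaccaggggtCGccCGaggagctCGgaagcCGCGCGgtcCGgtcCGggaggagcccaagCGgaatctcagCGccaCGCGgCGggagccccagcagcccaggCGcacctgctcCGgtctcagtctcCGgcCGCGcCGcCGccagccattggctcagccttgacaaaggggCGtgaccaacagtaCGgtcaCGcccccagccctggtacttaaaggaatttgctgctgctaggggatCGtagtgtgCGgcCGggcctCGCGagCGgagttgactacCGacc
Ovol2 (chr2:144331313-144331612, minus strand): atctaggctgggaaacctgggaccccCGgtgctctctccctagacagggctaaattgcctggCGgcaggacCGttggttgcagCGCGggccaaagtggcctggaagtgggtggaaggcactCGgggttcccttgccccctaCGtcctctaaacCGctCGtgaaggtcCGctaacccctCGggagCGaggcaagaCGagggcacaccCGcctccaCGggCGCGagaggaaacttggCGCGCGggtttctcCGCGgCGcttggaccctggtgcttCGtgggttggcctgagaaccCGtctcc
Zeb2 (chr2:45117393-45117692, minus strand): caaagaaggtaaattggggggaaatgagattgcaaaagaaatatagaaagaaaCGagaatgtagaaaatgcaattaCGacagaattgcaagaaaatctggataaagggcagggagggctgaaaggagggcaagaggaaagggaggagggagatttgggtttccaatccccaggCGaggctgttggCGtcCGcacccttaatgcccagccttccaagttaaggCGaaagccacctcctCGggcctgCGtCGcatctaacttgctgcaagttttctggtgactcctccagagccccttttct
The Twist1 promoter held 27 CG, that of Snai1 34, that of Ovol2 25 and that of Zeb2 9. Of 32851 promoters of this length in the same table, 15.5% held at least as many CG as Twist1, 7.73% as many as Snai1, 18.4% as many as Ovol2 and 45.8% as many as Zeb2, and the median was 7. Zeb2 has other listed starts, with 8, 8 and 19 CG. The Ovol2 run lies wholly inside the gene span, which reaches 144332080, so its start is not the outermost one. The Twist2 promoter also held 25 CG. Among the 4 promoters shown, the order of CG content was not the order of the mark. The Snai1 promoter held more CG than that of Twist1, yet the Snai1 window carried less H3K27me3 per kb. The promoters are short stretches, while the mark is averaged over whole gene windows, and a relation between them was not tested. The Snail and Zeb motif CACCTG was searched on both strands, and so also as CAGGTG. It occurred 1 time in the Snai1 promoter and in none of the other member promoters searched. It occurred in 20.2% of all promoters. Promoters were searched for 5 of the 10 members. Snai2, Snai3, Ovol1 and Grhl2 had no promoter in the reference, and that of Zeb1 was left out of the search.

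Per kb of window, H3K27me3 over the 10 genes spanned a wide range in wild-type macrophages, and the 2 Zeb genes stood at its bottom. The deposited window lengths are close to the gene with 3 kb on each side, equal to it for 3 members and within 3.06% for the others, so long genes average the mark over more sequence, and where in the window the mark lies cannot be read from the counts. Twist1, a bHLH factor of mesoderm and neural crest (chromosome 12, 33957671 to 33959831 in mm10, window 8161 bp), was highest. It had 16.3 and 16.3 CPM per kb in cKO and 18.5 and 17.0 in wild type, above 99.6% of all tested genes in wild type. Next came Snai2, the Slug repressor (chromosome 16, 14705852 to 14709395, window 9527 bp), with 6.03 and 6.49 CPM per kb in cKO and 6.72 and 6.61 in wild type. Ovol1, a zinc finger repressor of skin and germ line differentiation (chromosome 19, 5549137 to 5560575, window 17439 bp), had 5.01 and 4.32 in cKO and 4.66 and 4.60 in wild type. These 3 genes lay above the 90th percentile of wild-type levels over tested genes, which was 3.33 CPM per kb. Of the Ovol1 window 36.3% overlaps that of Ap5b1, and how reads in such overlaps were counted was not stated. Of windows wholly overlapped by others 67.1% held 0 counts in every library, against 1.27% of windows with no overlap, so the levels of overlapped windows are uncertain.

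In the middle of the range stood Twist2, Grhl2 and Snai1, all at or above the median of tested genes (0.664 CPM per kb in wild type). Twist2, the paralogue of Twist1 active in dermis (chromosome 1, 91801461 to 91848034, window 52551 bp), had 2.13 and 2.22 CPM per kb in cKO and 2.18 and 2.02 in wild type. Grhl2, the grainyhead factor that activates epithelial junction genes (chromosome 15, 37232821 to 37363569, window 136534 bp), had 1.60 and 1.69 in cKO and 1.70 and 1.67 in wild type. Counted over the whole window rather than per kb, Grhl2 was the member with most mark, at 218 and 231 CPM in cKO and 232 and 228 in wild type. Snai1, the Snail repressor that starts the transition in the embryo (chromosome 2, 167538195 to 167542814, window 10588 bp), had 1.11 and 0.682 CPM per kb in cKO and 0.833 and 0.770 in wild type.

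At the low end were Ovol2, Snai3, Zeb2 and Zeb1, 4 members below the median of tested genes in wild type. Ovol2, an epithelial zinc finger factor that represses Zeb1 (chromosome 2, 144305175 to 144332080, window 32906 bp), had 0.799 and 0.649 CPM per kb in cKO and 0.338 and 0.440 in wild type. Snai3, a further Snail paralogue (chromosome 8, 122454204 to 122460809, window 12487 bp), had 0.291 and 0.254 in cKO and 0.154 and 0.181 in wild type. Zeb2 (chromosome 2, 44983512 to 45117442, window 135646 bp) had 0.105 and 0.0873 in cKO and 0.0509 and 0.123 in wild type. Zeb1, its paralogue (chromosome 18, 5591327 to 5775468, window 189609 bp), had 0.419 and 0.472 in cKO and 0.0829 and 0.0907 in wild type. In wild type each member's libraries stood clear of those of the next in the order, except that Zeb2 and Zeb1 overlapped. The wild-type Zeb1 level was 0.489% of that of Twist1 per kb. Over whole windows, however, the Zeb genes were not the lowest in wild type. Mean CPM was 16.5 at Zeb1, 12.8 at Ovol2, 11.8 at Zeb2, 8.48 at Snai1 and 2.09 at Snai3. In cKO the order was the same down to Ovol2, but Zeb1 stood eighth, above Snai3 and Zeb2.

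**Figure D1:**
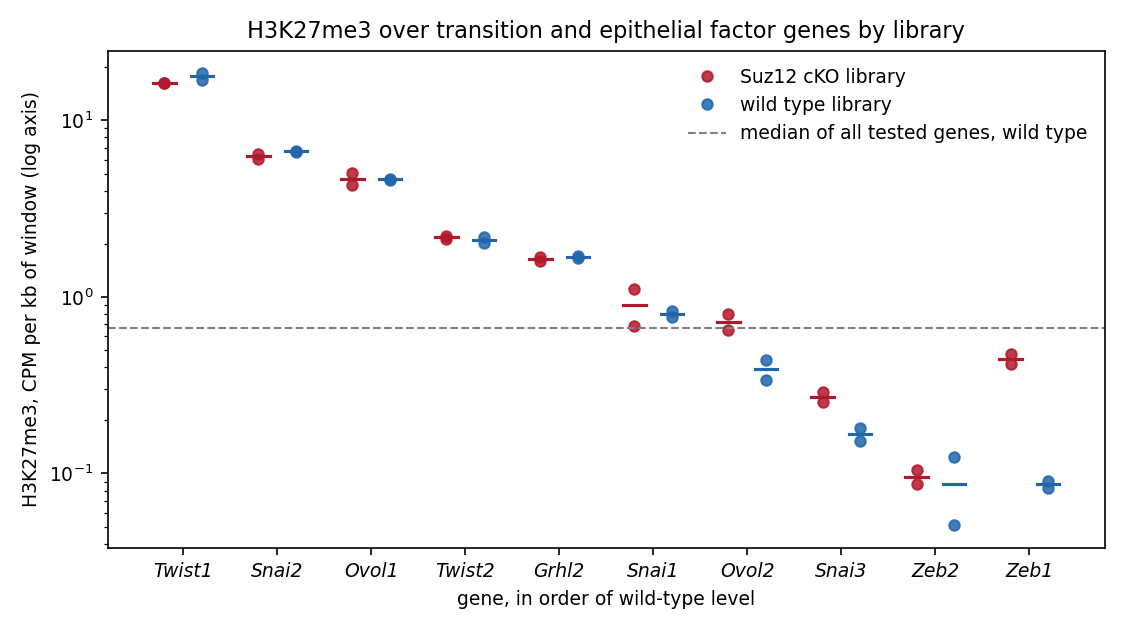
H3K27me3 in CPM per kb of gene window (log axis) for each of the 10 genes, with a point for each of the 2 Suz12 cKO and 2 wild-type libraries and a bar at each mean. Twist1 stands highest at 16.3 to 18.5 CPM per kb, and at Zeb1 the cKO libraries (0.419 and 0.472) lie above the wild-type libraries (0.0829 and 0.0907).

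Median levels of the 7 transition factors were 0.898 CPM per kb in cKO and 0.801 in wild type, with gene means from 0.0960 to 16.3 in cKO and from 0.0868 to 17.7 in wild type. The 3 epithelial factors had a median of 1.65 in cKO and 1.69 in wild type and lay within that range, from 0.724 to 4.67 in cKO and from 0.389 to 4.63 in wild type. The 10 members had a median of 1.27 in cKO and 1.24 in wild type. Other factors of the transition (13 genes such as Foxc1 and Foxc2) had median levels of 5.43 and 3.55, while their median log2 fold change was 0.07. Other epithelial factors (12 genes such as Foxa2 and Tfap2c) had median levels of 2.87 and 2.67 and a median log2 fold change of 0.12. These are descriptions, and no test of the lists against each other was made.

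Zeb1 differed most between genotypes, with more H3K27me3 relative to the library in Suz12 cKO. Its window held 263 and 310 counts in cKO and 41 and 38 in wild type, or 79.5 and 89.5 CPM against 15.7 and 17.2. Both cKO libraries were high, both wild-type libraries were low, and replicates lay close together. The mean was 84.5 ± 7.08 CPM in cKO and 16.5 ± 1.05 in wild type (SD, n = 2 each), a ratio of 5.13 and a log2 fold change of 2.36 ± 0.18 (SE). That was rank 16 among 16752 genes tested. Per kb, however, Zeb1 in cKO still stood below most tested genes: 39.9% of them had a lower level in cKO, and 3.77% had a lower level than Zeb1 in wild type. The other window overlapping that of Zeb1, by 7111 bp, belongs to the lncRNA gene Gm10125.

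The paralogue Zeb2 had no such difference. Its window held 47 and 41 counts in cKO and 18 and 37 in wild type, or 14.2 and 11.8 CPM against 6.90 and 16.8. The cKO values lay between the 2 wild-type values, which were far apart. The log2 fold change was 0.17 ± 0.32, and it was 0.92 without wild-type library 2 and −0.35 without wild-type library 1, so the wild-type libraries decided its sign. The counting ratio was 1.10 (exact binomial 95% interval 0.775 to 1.57). Of the Zeb2 window 10.7% overlaps those of Zeb2os and Mir5129, both of which held 0 counts in every library. Zeb1 and Zeb2 thus stood together in wild type and apart in cKO.

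Relative to the library, Ovol2 also had more H3K27me3 in cKO. It held 87 and 74 counts in cKO and 29 and 32 in wild type, or 26.3 and 21.4 CPM against 11.1 and 14.5. The genotypes did not overlap, and the log2 fold change was 0.90 ± 0.27 (ratio 1.86). The log2 fold change was 0.73 without wild-type library 1 and 0.75 without cKO library 1. No other window overlaps that of Ovol2.

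The strongly marked members differed little in these relative values. Twist1 held 440 and 460 counts in cKO and 393 and 307 in wild type, or 133 and 133 CPM against 151 and 139, a log2 fold change of −0.13 ± 0.11. Snai2 held 190 and 214 counts in cKO and 167 and 139 in wild type, or 57.4 and 61.8 CPM against 64.0 and 62.9 (−0.09 ± 0.15). At both genes the cKO libraries lay just below the wild-type libraries. Scaling to housekeeping genes, which moved the median of all genes by 0.21, turned both signs (0.08 and 0.12, still below that scaling's median of 0.19). Twist2 had 112 and 117 CPM in cKO and 115 and 106 in wild type (0.05 ± 0.12, and −0.04 with upper-quartile factors). Ovol1 had 87.4 and 75.4 CPM in cKO and 81.3 and 80.1 in wild type (0.01 ± 0.13, and −0.09 without cKO library 1). For Grhl2 the log2 fold change was −0.04 ± 0.10, and 0.18 with housekeeping scaling. In each of these 3 genes the libraries of the 2 genotypes overlapped.

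The remaining Snail genes had few counts. Snai1 held 39 and 25 counts in cKO and 23 and 18 in wild type, or 11.8 and 7.22 CPM against 8.82 and 8.15. The genotypes overlapped, with a log2 fold change of 0.16 ± 0.37 and a counting ratio of 1.07 (exact binomial 95% interval 0.713 to 1.63). The sign rested on cKO library 1, since the value without it was −0.23. Snai3 held 12 and 11 counts in cKO and 5 and 5 in wild type and did not pass the filter on low counts. Its counting ratio was 1.58, with an interval of 0.723 to 3.72 that includes equality, so no difference was detectable at this depth. Of the Snai3 window 30.0% overlaps those of Gm20735 and Rnf166.

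Of the 10 members, 9 passed the filter, and 2 of them, Zeb1 and Ovol2, were past the threshold as gained in cKO. Among all 16752 genes tested 6.42% were called, 4.46% as gained and 1.96% as lost. Since this comparison led to the choice of the family, nothing is read from that count. The genotypes did not overlap at 4 of the 9, with both cKO libraries above at 2, against 47.6% and 23.8% of all genes tested. The median log2 fold change of the 9 was 0.05 and that of all tested genes −0.01. The central 95% of all tested genes ran from −1.10 to 0.95, so that Zeb1 lay outside and the other 8 inside.

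**Figure D2:**
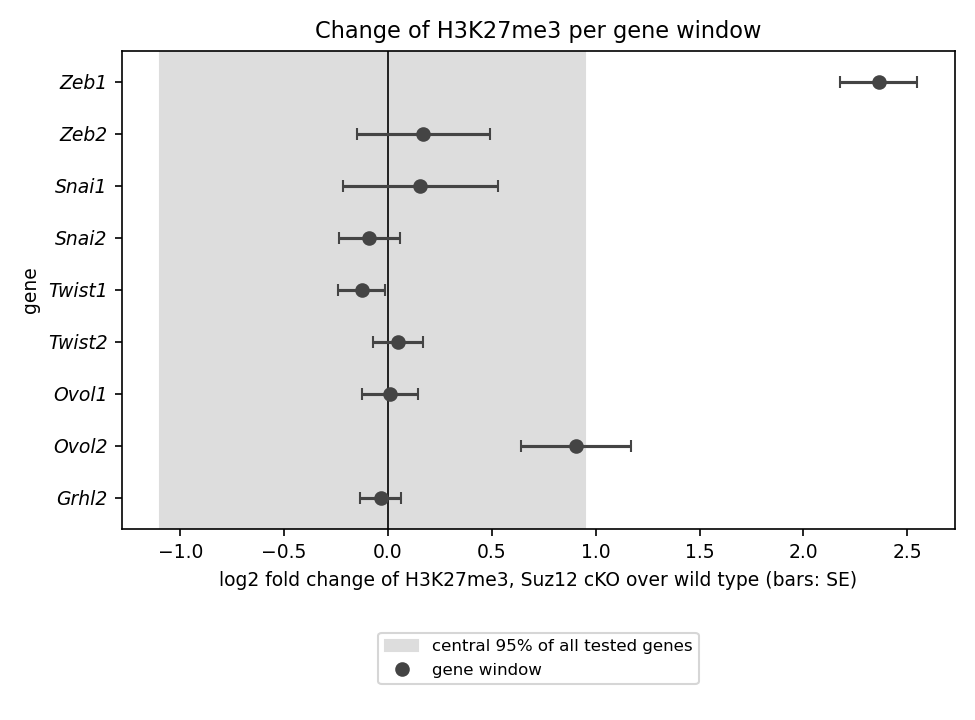
Log2 fold change of H3K27me3, Suz12 cKO over wild type, for the 9 members that passed the count filter, with bars of 1 SE. Zeb1 at 2.36 lies outside the grey band that holds the central 95% of all tested genes (−1.10 to 0.95), and Ovol2 at 0.90 lies near its edge.

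The windows beside the members were followed as well. They were taken, after the members' values had been seen, as the 3 nearest tested windows on each side of each member, 60 in all, of which 4 were gained and 4 lost (6.67% each), against 4.46% gained and 1.96% lost of all genes tested. Beside Zeb1, the overlapping lncRNA gene Gm10125 also rose, with 237 and 286 counts in cKO and 66 and 63 in wild type (log2 fold change 1.52 ± 0.17, adjusted p = 9.04e-15). The next window on each side had a value near 0. Zfp438, a zinc finger gene 257 kb from Zeb1, had a log2 fold change of −0.13 ± 0.30. Arhgap12, a GTPase-activating protein gene 249 kb away on the other side, had −0.13 ± 0.22. Beyond Arhgap12, Kif5b had −0.95 ± 0.63 and Epc1 −0.72 ± 0.43 (adjusted p = 0.447 and 0.382). Svil, which encodes the actin-binding supervillin, was lower in cKO (−1.36 ± 0.45, adjusted p = 0.0483) with 10 to 26 counts a library, and was not called when any 1 library was left out (adjusted p = 0.0848 to 0.428). The 6 windows beside Ovol2 had log2 fold changes of −0.60 to 0.31, with adjusted p of 0.338 and above.

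Beside the other members, the neighbours called were 2 of 6 at Twist1, 1 of 6 each at Zeb2, Snai2, Snai3 and Twist2, and none at Snai1, Ovol1 and Grhl2. Over the neighbours of all members 13.3% were called, against 6.42% of all genes tested. Next to Twist1, Hdac9, a class II histone deacetylase, rose to 233 and 273 counts in cKO, against 82 and 73 in wild type (log2 fold change 1.21 ± 0.16, adjusted p = 2.44e-10). On its other side Ferd3l, a bHLH gene of neural tissue, fell to 90 and 95 counts in cKO, against 109 and 104 in wild type (−0.70 ± 0.19, adjusted p = 0.0091). Next to Twist2, Hdac4, a paralogue of Hdac9, fell to 65 and 41 counts in cKO, against 72 and 60 in wild type (−0.80 ± 0.24, adjusted p = 0.0242). Ferd3l was not called without cKO library 1, cKO library 2 or wild-type library 2 (adjusted p = 0.099, 0.122 and 0.138), nor Hdac4 without cKO library 2, wild-type library 1 or wild-type library 2 (0.568, 0.121 and 0.101). Near Zeb2, Arhgap15, a Rac GTPase regulator 588 kb away, rose to 1202 and 1289 counts in cKO, against 251 and 240 in wild type (1.85 ± 0.11, adjusted p = 1.18e-42). Gtdc1, which lies between Arhgap15 and Zeb2, had −0.55 ± 0.22 (adjusted p = 0.115). Cbfa2t3, a corepressor gene 164 kb from Snai3, was the other gained neighbour (2.27 ± 0.14), and Abcc1, an efflux transporter gene near Snai2, was the other lost (−1.30 ± 0.28, adjusted p = 0.000209). Leaving out cKO library 2 ended the call of Abcc1, at −0.85 (adjusted p = 0.137).

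**Figure D3:**
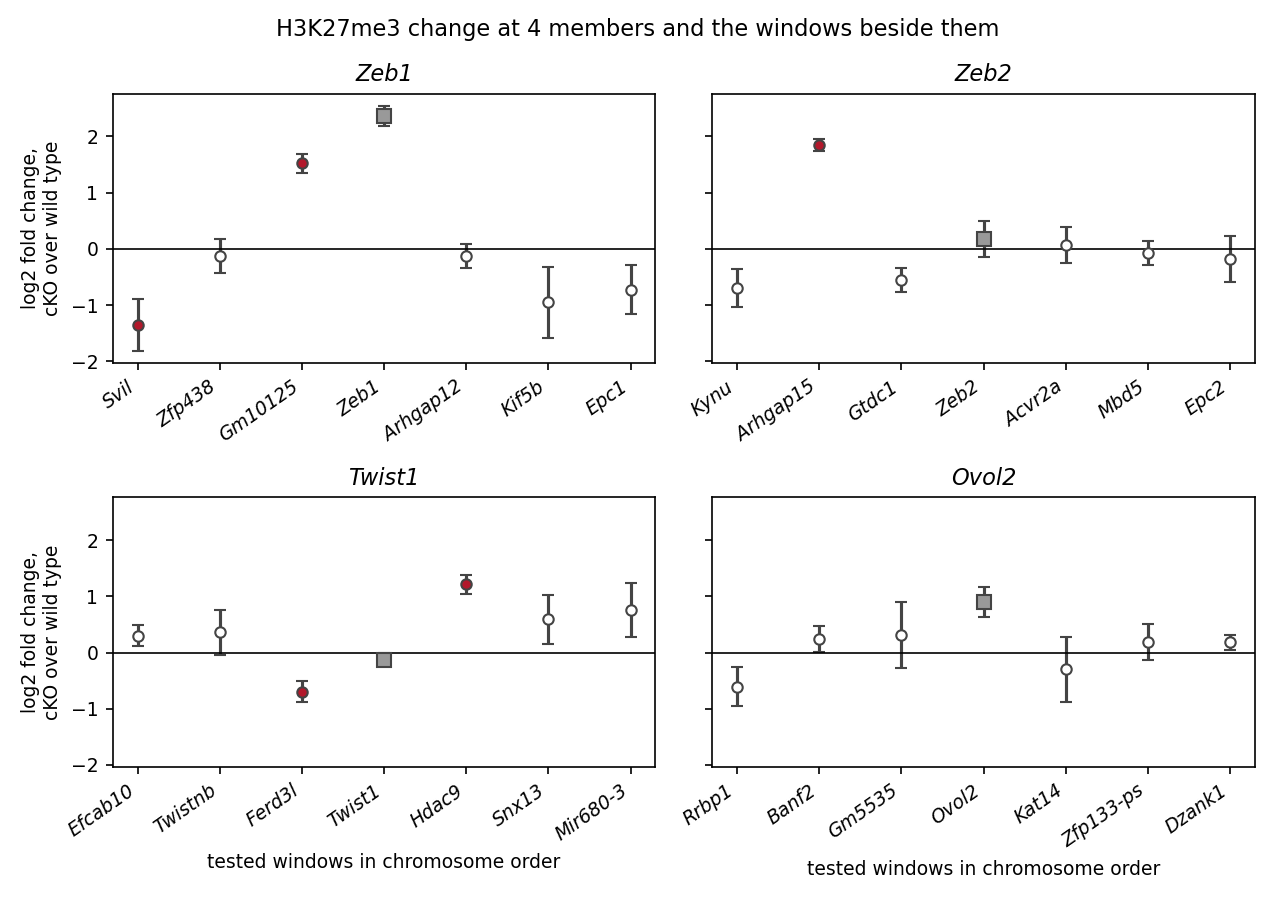
Log2 fold change of H3K27me3, Suz12 cKO over wild type (y axis, bars of 1 SE), at Zeb1, Zeb2, Twist1 and Ovol2 (grey squares) and at the 3 nearest tested windows on each side in chromosome order (circles, filled red where the adjusted p was below 0.05). Zeb1 (2.36) and Gm10125 (1.52) stand high, Zfp438 and Arhgap12 lie at −0.13, and Twist1 (−0.13) stands between Ferd3l (−0.70) and Hdac9 (1.21).

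Among tested protein-coding genes, leaving out those with Gm or Rik names, Pramel14, Gng2 and Pramel11 lay nearest to Zeb1 in log2 CPM per kb. Their Euclidean distances over the 4 libraries were 0.25, 0.34 and 0.55. Gng2, a G protein gamma subunit, held 150 and 145 counts in cKO and 23 and 21 in wild type. The Pramel genes held 15 to 17 counts in each cKO library and 2 to 3 in each wild-type library, and they belong to a family of close copies, so their values are uncertain.

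Genes that carry out or steer the transition showed calls in both directions. Each count below stands against 4.46% gained and 1.96% lost of all genes tested, and no list was tested as a set. Of 16 tested epithelial genes, 2 were gained and 1 lost (18.8% called, against 6.42% of all genes). This list, called epithelial adhesion genes below, holds mostly adhesion, polarity and keratin genes that the transition factors repress. It also holds genes of splicing and proteolysis, such as Esrp1 and St14. Ocln, the tight junction protein occludin, rose to 74 and 71 counts in cKO, against 13 and 22 in wild type (log2 fold change 1.55 ± 0.31, adjusted p = 7.79e-05). Esrp1, a splicing factor of epithelial isoforms, rose, with a log2 fold change of 0.45 ± 0.10 (adjusted p = 0.000661), and St14, the serine protease matriptase, fell, with one of −0.54 ± 0.14 (adjusted p = 0.00565). Cdh1, which encodes E-cadherin, the classical target of these repressors, had 50 and 63 counts in cKO and 38 and 22 in wild type (0.43 ± 0.29, adjusted p = 0.466). The list median was 0.08. Leaving out cKO library 1 or wild-type library 2 ended the call of Esrp1 (adjusted p = 0.0878 and 0.0574). Leaving out cKO library 1, cKO library 2 or wild-type library 1 ended that of St14 (0.102, 0.163 and 0.0545).

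Of 11 tested further epithelial transcription factors 1 was gained (9.09%, against 4.46% of all genes), Tfap2a, an AP-2 factor of surface ectoderm. It had 364 and 401 CPM in cKO and 325 and 301 in wild type (0.29 ± 0.09, adjusted p = 0.0375), and lost its call under 8 of 12 alternatives, among them without cKO library 1, cKO library 2 and wild-type library 2 (adjusted p = 0.116, 0.585 and 0.166). Elf3, an Ets factor of epithelia, had 0.64 ± 0.32 (adjusted p = 0.263), and Foxa2, a forkhead factor of endoderm, 0.18 ± 0.10 (adjusted p = 0.342). Grhl1 and Grhl3, the other grainyhead genes, had log2 fold changes of −0.09 and −0.03. Ovol3, the other Ovol gene, held 1 to 3 counts a library.

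Of 16 tested mesenchymal genes 4 were gained and 1 lost (31.2% called, against 6.42% of all genes). Fn1 and Sparc were already known to be gained in these libraries when the list was made, so the count is not independent of that choice. Fn1, the matrix protein fibronectin, had 56.2 and 61.2 CPM in cKO and 3.07 and 9.05 in wild type (3.32 ± 0.26). Sparc, a matricellular protein, had 31.1 and 29.2 CPM in cKO and 11.9 and 8.60 in wild type (1.54 ± 0.26). Pdgfrb, the PDGF receptor of pericytes, rose by 0.47 ± 0.11 (adjusted p = 0.000892), and Cdh11, a mesenchymal cadherin, by 0.44 ± 0.13 (adjusted p = 0.0176). Both were named to complete the count, after their values were seen. Without cKO library 2 neither was called (adjusted p = 0.186 for Pdgfrb and 0.354 for Cdh11), nor was Cdh11 without cKO library 1 or wild-type library 2 (0.104 and 0.135). Mmp2, a gelatinase, fell to 250 and 252 CPM in cKO, against 355 and 328 in wild type (−0.45 ± 0.10, adjusted p = 0.000264), and was −0.24 with housekeeping scaling (adjusted p = 0.599). Its call also ended on leaving out either cKO library (adjusted p = 0.0515 and 0.0572). Cdh2, which encodes N-cadherin, had 0.09, and Vim, which encodes vimentin and is active in macrophages, held 0 to 2 counts a library.

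Of 13 tested other factors of the transition, 2 were gained (15.4%, against 4.46% of all genes). Tcf4, an E protein that dimerises with Twist factors, rose to 330 and 351 CPM in cKO, against 128 and 142 in wild type (1.34 ± 0.10, adjusted p = 1.96e-27). Sox4, an HMG-box factor, rose to 49.0 and 48.5 CPM in cKO, against 36.0 and 27.6 in wild type (0.60 ± 0.18, adjusted p = 0.0203). The call of Sox4 ended on leaving out cKO library 1, cKO library 2 or wild-type library 2 (adjusted p = 0.138, 0.169 and 0.303). Foxc1, a forkhead factor of mesoderm, had 0.31 ± 0.12 (adjusted p = 0.0879). Of 19 tested corepressors, dimer partners and stability regulators, 1 was called (5.26%, against 6.42% of all genes). Tcf12, the E protein HEB, fell to 46 and 34 counts in cKO, against 63 and 56 in wild type (−1.06 ± 0.27, adjusted p = 0.00316), a call that ended on leaving out cKO library 2 (adjusted p = 0.167). Tcf4 and Tcf12 thus differed in sign, but Tcf12 had little mark in either genotype. It had 0.0434 CPM per kb in cKO and 0.0905 in wild type, against 0.973 and 0.387 for Tcf4. Tcf4, unlike Tcf12, stayed called under every alternative. Tcf3, the remaining E protein, had −0.34 (adjusted p = 0.774). Smarca4, the BRG1 chromatin remodeller, had −1.04 ± 0.39 (adjusted p = 0.0864), and Btrc, a ubiquitin ligase subunit that acts on Snai1, −0.65 ± 0.24 (adjusted p = 0.0953). Hand1 and Hand2, bHLH relatives of Twist with strong mark, had 0.16 and −0.01.

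Of 24 TGF-β, BMP and Notch genes listed as upstream of the transition, inhibitors among them, 3 were gained (12.5%, against 4.46% of all genes). Zfyve9 and Tgfb2 were known to be gained when the list was made. Zfyve9, the adaptor that presents Smad proteins to the receptor, had 255 and 300 counts in cKO and 37 and 18 in wild type (2.84 ± 0.20). Tgfb2, a TGF-β ligand, had 256 and 296 counts in cKO and 70 and 70 in wild type (1.48 ± 0.16). Smad6, an inhibitory Smad, rose to 363 and 378 counts in cKO, against 168 and 154 in wild type (0.71 ± 0.13, adjusted p = 1.24e-05). Smad7 held 16 and 19 counts in cKO and 30 and 25 in wild type (−1.14 ± 0.40, adjusted p = 0.0636). The receptors Tgfbr1, Tgfbr2 and Tgfbr3 had −0.31, −0.59 and −0.11 (adjusted p = 0.814, 0.357 and 0.609). The list median was −0.02, near that of all tested genes.

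**Figure D4:**
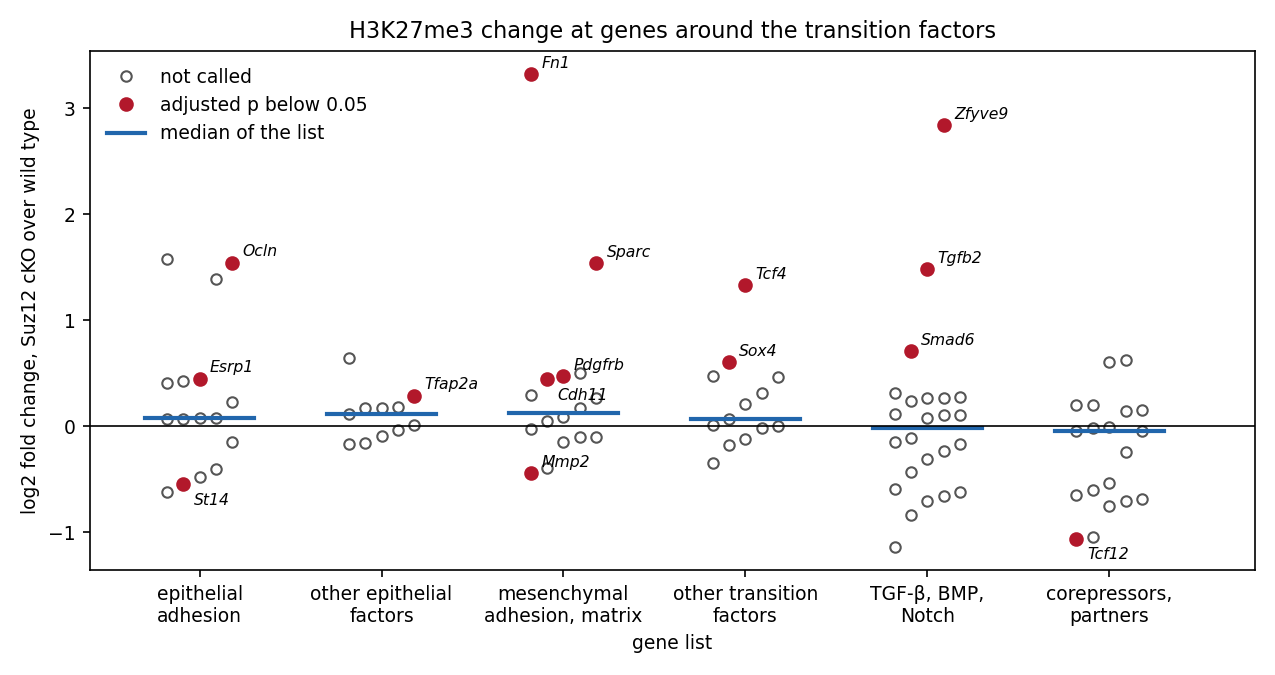
Log2 fold change of H3K27me3, Suz12 cKO over wild type, for each tested gene (points) of 6 gene lists around the transition factors, with filled, named points where the adjusted p was below 0.05 and a bar at each list's median. Medians lie between −0.05 and 0.13, while Fn1 (3.32), Zfyve9 (2.84), Ocln (1.55), Sparc (1.54), Tgfb2 (1.48) and Tcf4 (1.34) stand high.

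MicroRNAs form the other arm of this network, since miR-200, miR-205, miR-203 and miR-34 members repress Zeb or Snail messages. Mature sequences are shown for the 2 loci whose windows passed the filter, with the seed, bases 2 to 8, in capitals (RefSeq, GRCm38.p6).
miR-205-5p (chr1:193507503-193507524, minus strand): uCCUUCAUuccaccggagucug
miR-203-3p (chr12:112130927-112130948, plus strand): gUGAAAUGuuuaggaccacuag
Their seeds differ. The Mir205 window held 14 and 19 counts in cKO and 31 and 12 in wild type, with overlapping genotypes (−0.85 ± 0.44, adjusted p = 0.276). The Mir203 window held 95 and 108 counts in cKO and 87 and 98 in wild type, 4.93 and 6.40 CPM per kb on average (−0.36 ± 0.19, adjusted p = 0.303), with 44.3% of it overlapped. The windows of Mir200a, Mir200b, Mir429, Mir141, Mir200c, Mir34a, Mir34b and Mir34c held 0 to 12 counts in any library. Other windows overlap at least 87.4% of each window of the miR-200 family, and 100% of those of Mir34b and Mir34c. The low counts of these windows cannot be read as little mark.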

How the data were processed

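H3K27me3 Cut&Tag counts from 2 Suz12 cKO and 2 wild-type libraries were analysed, grouped by sample title. The deposited table holds raw counts for 27095 Entrez genes, made by the authors with featureCounts on mm10 per the submitters' processing notes, and a window length in bp. The aligner, the treatment of duplicates and the settings of the counter were not stated. Window lengths equalled the GRCm38.p6 gene span plus 3 kb on each side for 45.7% of matched genes and were within 5% of it for 83.5%. Symbols and positions came from the RefSeq table of that assembly (93.0% of IDs matched).

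CPM were computed with TMM factors. Genotypes were compared with edgeR 4.0.16 under R 4.3.3 (filterByExpr, glmQLFit, glmQLFTest, two-sided, genotype as the only term) over the whole table, and every adjusted p is Benjamini-Hochberg over the 16752 genes that passed. Standard errors come from the log2 fold change and its F statistic, which uses a spread shared across genes. They can therefore be small where a gene's own libraries differ. At Fn1, with 8 and 20 counts in wild type, the SE was 0.256 with edgeR and 0.625 with DESeq2. Library totals of 2142175 to 3567282 counts limit windows with few counts.

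Alternatives were 4 other scalings, DESeq2 1.42.0, 2 other count filters, a replicate block and leaving out each library. Housekeeping scaling used 30 genes that summed to only 109 to 140 CPM a library. It rested largely on Hprt (34.1 to 51.2 CPM) and Pgk1 (28.8 to 33.2 CPM). Genes were named by a rule: all members, Suz12, the 3 lowest p of each list and the 3 protein-coding genes nearest to Zeb1. The members, gene lists and this rule were chosen with earlier results of these data known. Fn1, Sparc, Tgfb2 and Zfyve9 were among those results. Neighbouring windows and further list genes were named after their values were seen.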

Additional observations from a re-analysis of the deposited data

How the results depend on the processing

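Over the 12 alternatives the log2 fold change of Zeb1 ran from 2.28 to 2.57 and that of Ovol2 from 0.73 to 1.10. Ovol2 fell short of the threshold with upper-quartile factors (0.82) and with DESeq2 (0.90), while Zeb1 stayed past it. The members past the threshold numbered 1 with upper-quartile factors and with DESeq2, and 1 to 2 when each library was left out (1 without cKO library 1 or wild-type library 1), against 2. All genes called numbered 377 with DESeq2 (325 gained, 52 lost) and 427 to 956 without each library, 589 without cKO library 1 and 427 without cKO library 2, against 1076. Gains made up 69.4% of calls, but 48.8% with upper-quartile factors, 56.4% with library totals alone and 92.0% with housekeeping scaling.

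Epithelial adhesion genes called numbered 5 with upper-quartile factors and 1 to 3 without each library. Other epithelial factors called numbered 0 with library totals alone, upper-quartile factors, housekeeping scaling, DESeq2 and the replicate block, and 0 to 3 without each library. Mesenchymal genes called numbered 2 to 5 without each library. Other transition factors called numbered 1 with upper-quartile factors and DESeq2, and 1 to 4 without each library. TGF-β, BMP and Notch genes called numbered 6 with upper-quartile factors (3 gained, 3 lost). They numbered 5 where means of 50 counts or more were required (3 gained, 2 lost). Partners called numbered 0 with housekeeping scaling and DESeq2, and 0 to 3 without each library. Foxa2 reversed without wild-type library 2 (−0.022, against 0.18), and was called without wild-type library 1 (0.46, adjusted p = 0.00403). The cause was not tested. Of the 15 genes called in these lists, 7 stayed called under every alternative in which they were tested (11 for Ocln and 12 for the other 6). Housekeeping scaling ended the call of Esrp1 (adjusted p = 0.0524), St14 (0.43), Tfap2a (0.199), Mmp2 (0.599) and Tcf12 (0.0636), and DESeq2 that of St14 (0.119), Tfap2a (0.14), Cdh11 (0.186), Sox4 (0.244) and Tcf12 (0.105). Upper-quartile factors ended that of Cdh11 (0.0824) and Sox4 (0.0749). Of the neighbours, Ferd3l and Hdac4 were not called with housekeeping scaling (0.28 and 0.22) or DESeq2 (0.155 and 0.296).

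With the replicate block, 1039 genes were called. Same-numbered libraries did not deviate together (r = 0.00945 across genes), so the numbers were not taken as pairs. By unshared window length, 8 of 10 members kept their place in the wild-type order, and Snai2 and Ovol1 changed places. At this depth a difference in a window of few counts, as at Snai1 and Zeb2, can be missed.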
